A study of Homo sapiens with 12 samples.

Results

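Of the 479 genes with eIF3-crosslinked RNA in 293T cells, 8 encode translation factors or mRNA-binding regulators outside eIF3 itself: EEF2, EIF1, EIF4G3, EIF5, IGF2BP1, LARP1, PABPC4 and TPT1. They were chosen by gene name, and they held 30 of the 1477 clusters, at 9 of 558 loci. A cluster is a stretch of RNA where crosslinked reads of 1 eIF3 subunit pile up, and a locus joins the overlapping clusters of different subunits. The 293T line is a transformed human embryonic kidney line. All cells received 100 µM 4-thiouridine for 14 h and ultraviolet light at 0.15 J per square cm, and every library came through an antibody against eIF3b. The 4 groups are libraries labelled eIF3a, eIF3b, eIF3d and eIF3g, made from crosslinked complexes that were excised after gel electrophoresis, with 3 libraries each. No control library is used here. The table gives 1 value per cluster and subunit with no column for replicates, so the values below carry no spread between libraries, and no difference between subunits could be tested. Intervals are 95% Wilson intervals and cover counting error only.

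Initiation factor eIF3 holds the small ribosomal subunit while other factors bring mRNA to it and find the start codon. Several genes described here act in those same steps. eIF4G3 is a scaffold that links the cap-binding factor to eIF3, eIF1 guards the choice of the start codon, and eIF5 triggers GTP hydrolysis on eIF2 once that codon is found. eEF2 moves the ribosome along the mRNA during elongation. PABPC4 binds poly(A) tails, IGF2BP1 binds and stabilises mRNAs, and LARP1 binds the cap and the pyrimidine tract that opens TOP mRNAs (terminal oligopyrimidine mRNAs, whose translation follows growth signals). TPT1 and EEF2 mRNAs are well-known TOP mRNAs.

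The start of the transcript is shown for genes with a single RefSeq start in GRCh38.p14, and for EIF5, which had crosslinks at 2 sites. Each line gives 10 bases before the start and the first 20 transcribed bases, and capitals mark the unbroken run of C and T that opens the transcript.
TPT1: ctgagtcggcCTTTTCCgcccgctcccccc
EEF2: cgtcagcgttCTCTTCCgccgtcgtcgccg
EIF1: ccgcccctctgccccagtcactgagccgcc
EIF5, first start: ggcgttgttcagtcagagcgagaacattcc
EIF5, second start: ggcacccctcggccgtgtgtcgcttcccgg

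TPT1 (chr13:45341164-45341193, minus strand) and EEF2 (chr19:3985444-3985473, minus strand) both opened with C and ran for 7 pyrimidines. Of 35116 RefSeq start windows, 737 (2.10%) opened with C and a run of at least 7. In its first 20 bases TPT1 had 18 pyrimidines and EEF2 had 15, against a median of 10 over all windows. EIF1 (chr17:41688875-41688904, plus strand) and EIF5 (chr14:103334227-103334256 and chr14:103334878-103334907, plus strand) opened with a purine, so no letter is in capitals. EIF4G3 has 2 RefSeq starts and LARP1 has 4, and which start 293T cells use was not measured here. The cluster positions below are in hg19 as the authors' table gives them, so clusters and RefSeq starts were not placed on each other.

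Most of these genes were listed for every subunit, and most had their clusters in the 5′ UTR. EEF2, EIF5, IGF2BP1, LARP1 and TPT1, 5 of 8 genes (62.5%), had a cluster in all 4 subunits, beside 33.6% of all genes in the table. By subunit, 7 of the 8 were listed for eIF3a (68.5% of all genes), 6 for eIF3b (55.1%), 7 for eIF3d (74.3%) and 7 for eIF3g (73.3%). EIF1 lacked a cluster in eIF3b, EIF4G3 lacked one in eIF3d, and PABPC4 had a cluster in eIF3d alone. Being listed for 1 subunit was found for 19.6% of all genes. The 8 genes held 1398 of 120874 reads (1.16%), of which TPT1 gave 50.7% and EIF5 22.1%. Of the 30 clusters, 21 had fewer than 30 reads, as did 65.1% of all clusters, and no cluster in the whole table had fewer than 8, so a gene without a listed cluster need not have had 0 reads. With clusters below the median reads of their subunit left out, TPT1 was the 1 gene of the 8 still listed for all 4 subunits, as were 14.2% of all 479 genes.

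In 7 of the 8 genes every cluster was annotated to the 5′ UTR, and in LARP1 every cluster was annotated to an intron. The 5′ UTR held 26 of the 30 clusters (86.7%, interval 70.3 to 94.7), beside 67.8% of all 1477 clusters. The 1477 clusters include those of noncoding RNA, which has no 5′ UTR, while all members are protein-coding genes. The share among mRNA clusters alone was not computed, so the comparison does not show that the members are enriched in the 5′ UTR. In each subunit 1 member cluster lay outside the 5′ UTR, and that was the LARP1 cluster. The clusters of 1 gene share their site and are not independent, so the interval is narrower than the data allow.

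**Figure D1:**
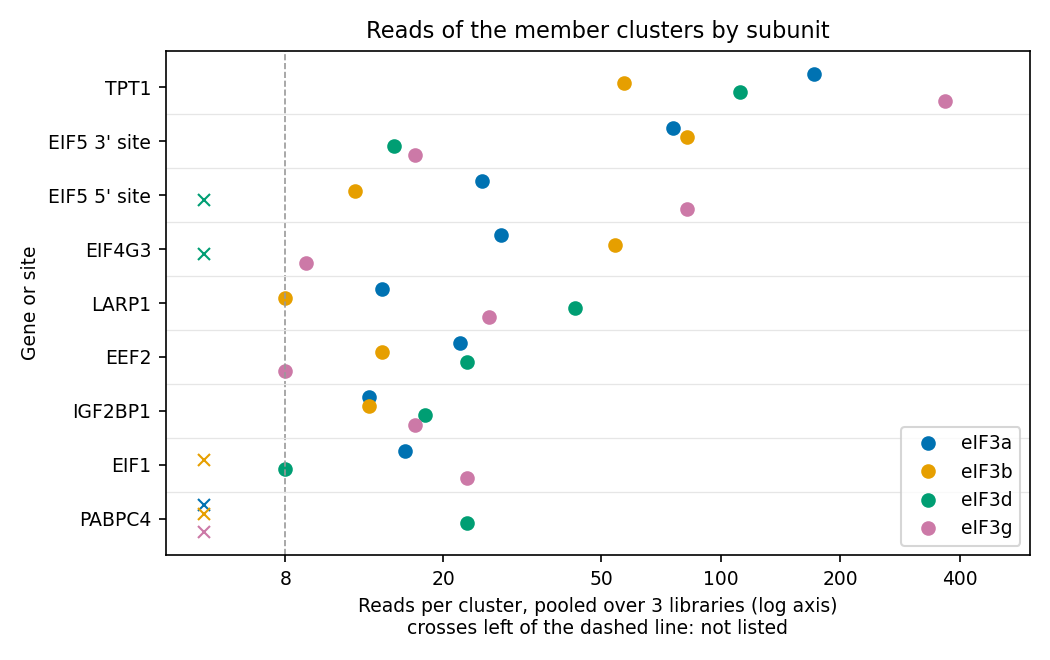
Reads of each cluster (horizontal log axis, 1 value per subunit) for the 8 genes, with EIF5 split into its 2 sites; colours are subunits, and crosses left of the dashed line at 8 reads mark subunits with no cluster listed. TPT1 lies highest with 57 to 368 reads, the 2 EIF5 sites have opposite orders of eIF3g against eIF3a and eIF3b, and PABPC4 has 1 point.

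TPT1, which encodes the translationally controlled tumour protein, had the strongest clusters of the set, in the 5′ UTR at chr13:45915327-45915353 on the minus strand. The cluster held 368 reads in eIF3g, 172 in eIF3a, 112 in eIF3d and 57 in eIF3b. It was high in every subunit, with rank 18 of 401 clusters in eIF3g, 10 of 375 in eIF3a, 27 of 403 in eIF3d and 52 of 298 in eIF3b (equal counts take the higher rank). As a share of all cluster reads TPT1 made up 1.14% in eIF3a (interval 0.980 to 1.32), 0.590% in eIF3g (0.533 to 0.653), 0.464% in eIF3d (0.386 to 0.558) and 0.297% in eIF3b (0.229 to 0.385). The intervals of eIF3g and eIF3d overlapped. Without clusters of noncoding RNA and of EIF3A, which encodes eIF3a, 13507 of 15132 reads were left for eIF3a, 12078 of 19187 for eIF3b, 15246 of 24150 for eIF3d and 23192 of 62405 for eIF3g. With this denominator eIF3g came first at 1.59% (1.43 to 1.76), followed by eIF3a at 1.27% (1.10 to 1.48), whose interval overlapped it, eIF3d at 0.735% and eIF3b at 0.472%. TPT1 was thus lowest in eIF3b by either share, while the order of eIF3a and eIF3g depended on the denominator. Its start and end were the same in all 4 subunits, as at 58 of the 173 loci listed for all 4 (33.5%).

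EEF2, the translocation factor of elongation and the other well-known TOP mRNA of the set, had far fewer reads. Its 5′ UTR cluster held 23 reads in eIF3d, 22 in eIF3a, 14 in eIF3b and 8 in eIF3g. Those counts lay at ranks 193, 179, 190 and 386. In eIF3g the count is the lowest any listed cluster has, and 16 clusters of that subunit share it. The cluster spanned chr19:3985405-3985427 on the minus strand in both eIF3a and eIF3d. In eIF3b it ran 20 nt further toward the 3′ end, from 3985385 to 3985422, and in eIF3g it covered 15 nt. EEF2 made up 0.145% of the reads in eIF3a (0.0960 to 0.220) and 0.0128% in eIF3g (0.00650 to 0.0253). Without EIF3A and noncoding RNA these shares were 0.163% (0.108 to 0.247) and 0.0345% (0.0175 to 0.0681), so the interval of eIF3g stayed below that of eIF3a. TPT1, which opens with a pyrimidine run of the same length, also had a lower share of all reads in eIF3g (0.590%) than in eIF3a (1.14%). Without EIF3A and noncoding RNA the TPT1 shares were 1.59% in eIF3g and 1.27% in eIF3a, with overlapping intervals. Whether the pyrimidine run bears on these shares was not tested.

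The initiation factor genes were EIF4G3, EIF1 and EIF5. EIF4G3 had 28 reads in eIF3a, 54 in eIF3b, 9 in eIF3g and no listed cluster in eIF3d, all within chr1:21502638-21502684 on the minus strand. It ranked 56 of 298 in eIF3b and 371 of 401 in eIF3g. Its share of reads was 0.281% in eIF3b (0.216 to 0.367), 0.185% in eIF3a (0.128 to 0.267) and 0.0144% in eIF3g (0.00759 to 0.0274). The intervals of eIF3a and eIF3b overlapped, and that of eIF3g lay below both. Without EIF3A and noncoding RNA the shares were 0.447% in eIF3b (0.343 to 0.583), 0.207% in eIF3a (0.143 to 0.299) and 0.0388% in eIF3g (0.0204 to 0.0737), and none of these intervals overlapped. EIF1 had 16 reads in eIF3a, 8 in eIF3d and 23 in eIF3g, each in the 5′ UTR on chromosome 17, plus strand. EIF1 made up 0.106% of the eIF3a reads (0.0651 to 0.172), 0.0369% in eIF3g (0.0246 to 0.0553) and 0.0331% in eIF3d (0.0168 to 0.0654). Without EIF3A and noncoding RNA it was 0.118% (0.0729 to 0.192), 0.0992% (0.0661 to 0.149) and 0.0525% (0.0266 to 0.104), with overlapping intervals. Its count was thus highest in eIF3g and its share in eIF3a. These EIF1 clusters were staggered along the RNA: eIF3d from 39845175 to 39845199, eIF3g from 39845194 to 39845217 and eIF3a from 39845204 to 39845231. The eIF3d cluster overlapped that of eIF3g by 5 nt and ended 5 nt before that of eIF3a began, so EIF1 counts as 1 locus only through the eIF3g cluster.

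EIF5 was the 1 member with 2 separate loci, as were 57 of all 479 genes (11.9%) with 2 or more. Both were in its 5′ UTR on chromosome 14, plus strand, with 67 nt between them. The site nearer the 5′ end, chr14:103800779-103800806, held 25 reads in eIF3a, 12 in eIF3b and 82 in eIF3g, and was not listed for eIF3d. The site nearer the 3′ end, chr14:103800873-103800896 with an eIF3b cluster ending at 103800898, held 82 reads in eIF3b, 76 in eIF3a, 17 in eIF3g and 15 in eIF3d. Reads were thus highest at the 3′ site in eIF3a and eIF3b, and highest at the 5′ site in eIF3g. Summed over both sites EIF5 had 101 reads in eIF3a, 94 in eIF3b and 99 in eIF3g, which were 0.667% (0.550 to 0.810), 0.490% (0.401 to 0.599) and 0.159% (0.130 to 0.193) of the reads. The share in eIF3g lay below the other two. Without EIF3A and noncoding RNA eIF3b came first at 0.778% (0.636 to 0.951), with eIF3a at 0.748% (0.616 to 0.908) and eIF3g still below both at 0.427% (0.351 to 0.519). EIF5 was lowest in eIF3d, where one site was listed, at 0.0621% (0.0376 to 0.102), or 0.0984% (0.0596 to 0.162) with the smaller denominator.

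The 5′ site held 24.8% of the EIF5 reads in eIF3a (interval 17.4 to 34.0), 12.8% in eIF3b (7.46 to 21.0) and 82.8% in eIF3g (74.2 to 89.0). The eIF3a and eIF3b intervals overlapped each other, and the eIF3g interval overlapped neither. A share within a gene does not depend on the depth of a library. Counted by T-to-C conversions in place of reads, a choice made after seeing the data, the shares were 22.9%, 10.2% and 80.4%. Such a change of the leading site was seen in other genes too: of 25 genes with at least 2 loci in both eIF3a and eIF3g, compared at the 2 with most reads, the leading locus differed in 9 (36.0%), and of 18 such genes in eIF3b and eIF3g it differed in 3 (16.7%). Between eIF3a and eIF3g the ratio of the 2 sites changed by 3.87 on the log2 scale in EIF5, second of the 25 genes, whose median was 1.36. Between eIF3b and eIF3g it changed by 5.04, second of 18 genes with a median of 1.61, and between eIF3a and eIF3b by 1.17, 13th of 17. HNRNPA0, a gene of an RNA-binding protein, ranked before EIF5 in both pairs with eIF3g. EIF5 was singled out after its values were seen, so these places describe it and test nothing. The EIF5 starts in RefSeq lie 651 nt apart, and the starts of both clusters 94 nt. Clusters and RefSeq starts were not placed on each other, and whether these distances are related was not tested.

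**Figure D2:**
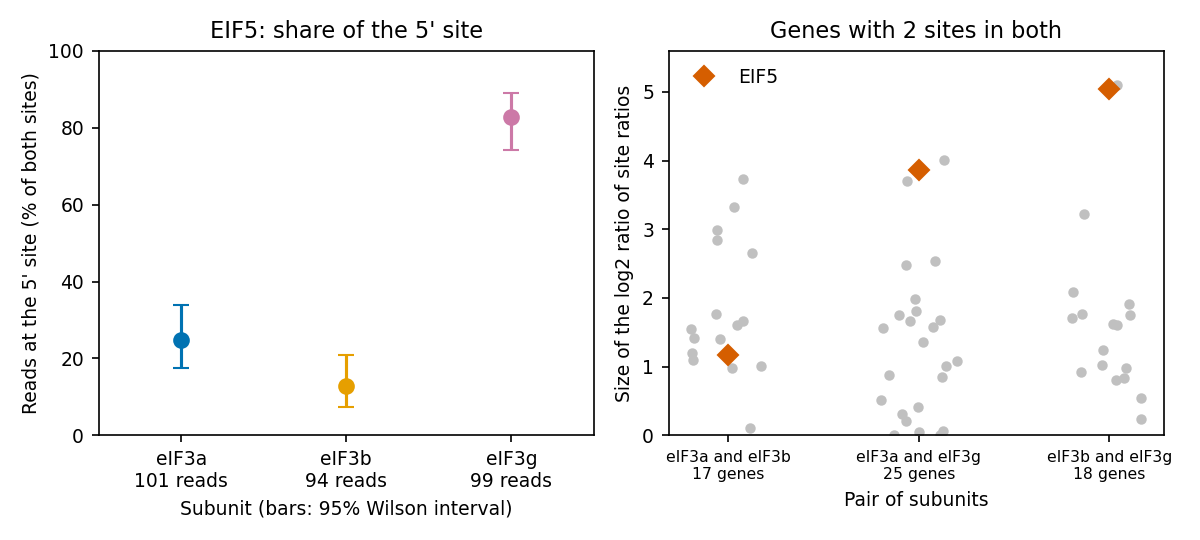
Left, the percentage of EIF5 reads at the 5′ site in eIF3a, eIF3b and eIF3g, with 95% Wilson intervals for counting error. Right, the size of the change in the ratio of the 2 sites (log2) for every gene with at least 2 sites in both subunits of a pair, one point a gene, EIF5 as a diamond; EIF5 is second at 3.87 of 25 genes and at 5.04 of 18 genes in the pairs with eIF3g, and lies at 1.17 between eIF3a and eIF3b.

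Of the RNA-binding regulators, IGF2BP1 was even across subunits by reads, and PABPC4 was listed for eIF3d alone. LARP1 had its most reads but its fewest conversions in eIF3d, where most clusters of any gene had few conversions per read. IGF2BP1, an mRNA-stabilising protein of embryonic and transformed cells, had 18 reads in eIF3d, 17 in eIF3g, 13 in eIF3a and 13 in eIF3b, within chr17:47074885-47074922 on the plus strand. All of its counts lay between 13 and 18. As a share of reads it was 0.0859% (0.0502 to 0.147) in eIF3a and 0.0272% (0.0170 to 0.0436) in eIF3g, but 0.0962% and 0.0733% without EIF3A and noncoding RNA, where the intervals overlapped (0.0563 to 0.165 and 0.0458 to 0.117). The eIF3a and eIF3b clusters shared 29 nt, and those of eIF3d and eIF3g 16 nt.

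LARP1 had 43 reads in eIF3d, 26 in eIF3g, 14 in eIF3a and 8 in eIF3b at chr5:154134921-154134945 on the plus strand. It ranked 89 of 403 in eIF3d and 282 of 298 in eIF3b. LARP1 made up 0.178% of the eIF3d reads (0.132 to 0.240), above its shares of 0.0417% in eIF3b (0.0211 to 0.0823) and eIF3g (0.0284 to 0.0610), while its share in eIF3a was 0.0925% (0.0551 to 0.155), an interval that overlapped that of eIF3d. Without EIF3A and noncoding RNA eIF3d remained first at 0.282% (0.209 to 0.380), against 0.112% in eIF3g (0.0765 to 0.164) and 0.104% in eIF3a (0.0618 to 0.174). All 4 LARP1 clusters were annotated as intronic, as were 8.46% of all clusters. The sources used here do not name the transcript set behind that annotation. Because LARP1 has 4 RefSeq starts, an intron of one transcript may be an exon of another, and this was not tested. PABPC4, a cytoplasmic poly(A)-binding protein, had 23 reads in eIF3d at chr1:40042035-40042056 on the minus strand, the median read count of that subunit's clusters. Its share of the eIF3d reads was 0.0952% (0.0635 to 0.143).

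**Figure D3:**
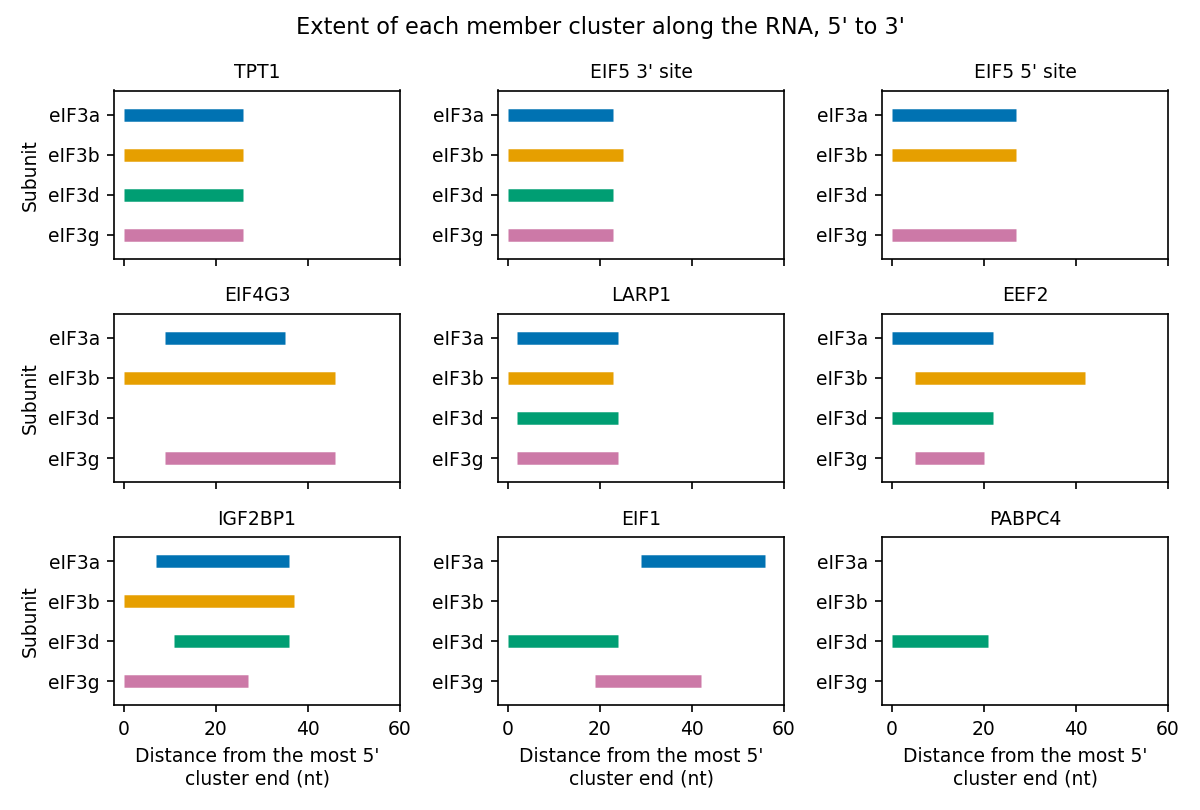
Extent of each cluster along the RNA in nt from the most 5′ cluster end of its locus, one panel a gene or EIF5 site and one bar a subunit. TPT1 has 4 identical bars, EIF1 has bars that step along the RNA with a gap of 5 nt between eIF3d and eIF3a, and the EEF2 bar of eIF3b reaches 20 nt beyond that of eIF3a.

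T-to-C conversions mark the uridines that crosslinked, and TPT1 carried few of them for its reads. TPT1 had 129 conversions in 368 reads in eIF3g (0.351 per read), 22 in 172 in eIF3a (0.128), 9 in 112 in eIF3d (0.0804) and 27 in 57 in eIF3b (0.474). The median over all clusters was 1.02 in eIF3g, 1.02 in eIF3a, 0.182 in eIF3d and 1.05 in eIF3b. Among the clusters of each subunit TPT1 lay at percentile 10.3 for eIF3g, 4.93 for eIF3a, 18.5 for eIF3d and 8.89 for eIF3b, where 0 is the fewest conversions per read. In read count, strong clusters are a closer match for it. Among clusters with at least 50 reads, 7 of 71 in eIF3a and 7 of 58 in eIF3b were lower than TPT1, but 45 of 73 in eIF3d and 33 of 74 in eIF3g. By rank TPT1 was therefore near the middle of the strong clusters in eIF3d and eIF3g, whose medians were 0.0650 and 0.796. In eIF3g its 0.351 per read was still well below that median. The genes lower than TPT1 in eIF3g included noncoding RNAs such as MT-RNR1, MT-RNR2, RNU11, RNU12 and RPPH1. Protein-coding genes such as BTG1, JUN, EIF3B and EIF3M were also among them. The place of TPT1 among strong mRNA clusters alone was not computed. EIF3A and EIF3M, mRNAs of eIF3 subunits, were among the genes lower than TPT1 in eIF3a and in eIF3b. Clusters of the mRNAs of eIF3 subunits carried 0.0486 to 0.230 conversions per read in eIF3a, which takes in TPT1. Elsewhere they lay below TPT1, at 0.0400 to 0.147 in eIF3b, 0.00965 to 0.0634 in eIF3d and 0.0417 to 0.159 in eIF3g.

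Outside TPT1, clusters in eIF3a, eIF3b and eIF3g were mostly close to 1 conversion per read. EIF5 had 0.974 and 1.07 per read at its 3′ site in eIF3a and eIF3b and 0.951 at its 5′ site in eIF3g, so its leading site was near 1 in each of these subunits. EIF4G3 had between 1.04 and 1.33, and EIF1 had 1.00 in eIF3a and 1.04 in eIF3g. IGF2BP1 had 0.846, 1.08 and 1.00 in eIF3a, eIF3b and eIF3g. EEF2 differed among subunits, with 10 conversions in 22 reads in eIF3a (0.455), 17 in 14 in eIF3b (1.21) and 6 in 8 in eIF3g (0.750). LARP1 had 16 in 14 reads in eIF3a (1.14), 6 in 8 in eIF3b (0.750) and 7 in 26 in eIF3g (0.269). Below 0.5 were EEF2 and TPT1 in eIF3a, TPT1 in eIF3b, and LARP1 and TPT1 in eIF3g, while 9.60%, 9.06% and 11.5% of all clusters of these subunits were. In eIF3d, where 94.8% of all clusters were below 0.5, 6 of the 7 member clusters were. EIF1 in eIF3d was the exception with 6 conversions in 8 reads (0.750), above nearly all other clusters of that subunit. LARP1 had 5 conversions in 43 reads in eIF3d (0.116), and PABPC4 had 3 in 23 (0.130). LARP1 thus had its most reads but its fewest conversions in eIF3d, where the median over all clusters was 0.182. Medians over the members were 0.976 in eIF3g, 0.927 in eIF3a, 0.174 in eIF3d and 1.07 in eIF3b. Summed conversions over summed reads, in which TPT1 weighs most, gave 0.546 in eIF3a and 0.531 in eIF3g.

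**Figure D4:**
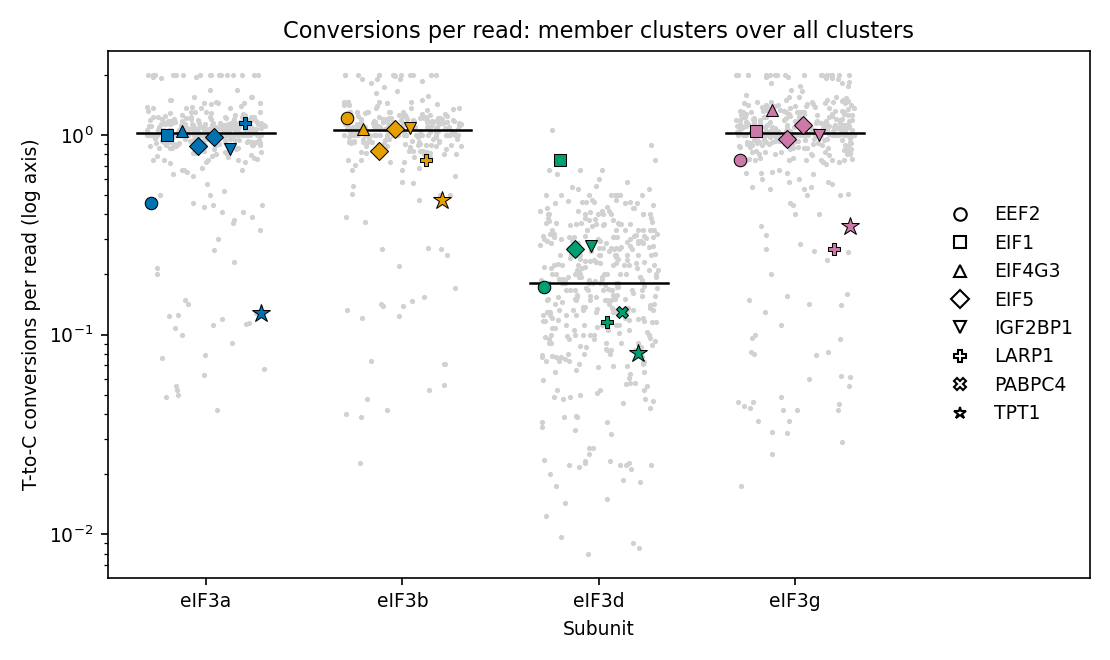
T-to-C conversions per read (log axis) in each subunit, with all clusters as grey points spread sideways at random, their median as a black line and the member clusters as symbols by gene. TPT1 (star) lies below the median in all 4 subunits, at 0.0804 to 0.474, and EIF1 in eIF3d (square) lies near the top of its group at 0.750.

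By reads, the member clusters as a set were ordinary within each list. Their median percentile, where 50 would be the middle of the subunit's clusters, was 53.7 in eIF3a, 50.9 in eIF3d, 46.9 in eIF3g and 34.7 in eIF3b. The eIF3b value rose to 56.5 when genes were ranked by summed reads and to 60.5 without noncoding and intronic clusters, so it rests on how clusters are counted. Member reads were 0.881% of all cluster reads in eIF3g (0.811 to 0.958), 1.00% in eIF3d (0.884 to 1.14), 1.25% in eIF3b (1.10 to 1.42) and 2.42% in eIF3a (2.19 to 2.68). Without EIF3A and noncoding RNA, an alternative added after seeing the data, they were 2.37% in eIF3g (2.18 to 2.58), 1.59% in eIF3d (1.40 to 1.80), 1.99% in eIF3b (1.75 to 2.25) and 2.71% in eIF3a (2.45 to 3.00), so eIF3g went from the lowest share to the second highest.

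At loci that a pair of subunits shared, the members spread to both sides of the median of all loci. Differences are of log2(reads + 1), unscaled, and depth per library is unknown. From eIF3a to eIF3b the median of 7 member loci was -0.62, beside -0.26 over all 229 shared loci, with 2 of 7 higher where 37.1% of all loci were. From eIF3a to eIF3d it was -0.28 beside 0.14, with 3 of 6 higher (57.5% of all loci), and from eIF3a to eIF3g 0.43 beside 0.00, with 5 of 8 higher (49.3%). From eIF3b to eIF3d it was 0.68 beside 0.35, with 4 of 5 higher (65.2%), from eIF3b to eIF3g 0.36 beside 0.21, with 4 of 7 (54.9%), and from eIF3d to eIF3g 0.05 beside -0.03, with 3 of 6 (46.4%). These pairs share subunits, so they are not separate evidence. Scaled by all cluster reads, the medians of eIF3g against eIF3a, eIF3b and eIF3d turned to -1.61, -1.34 and -1.32, and those of all shared loci to -2.04, -1.50 and -1.40, so the sign rests on the scaling. The eIF3d to eIF3a median turned to 0.06 when a locus needed an overlap of 0.5 of the shorter cluster, which separates the eIF3d cluster of EIF1.

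Single genes lay toward the ends of these distributions in some pairs. They were picked after their values were seen, so these places describe them and test nothing. From eIF3a to eIF3d, the EIF5 3′ site went from 76 to 15 reads, a difference of -2.27 at percentile 1.17 of 299 loci, and LARP1 went from 14 to 43, a difference of 1.55 at percentile 95.5. From eIF3b to eIF3g, TPT1 went from 57 to 368 reads (2.67, percentile 92.1) and EIF4G3 from 54 to 9 (-2.46, percentile 3.65). IGF2BP1 stayed in the middle, between percentiles 49.0 and 62.7 in all 6 pairs. A percentile within a pair does not change with a common scaling of either subunit.

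**Figure D5:**
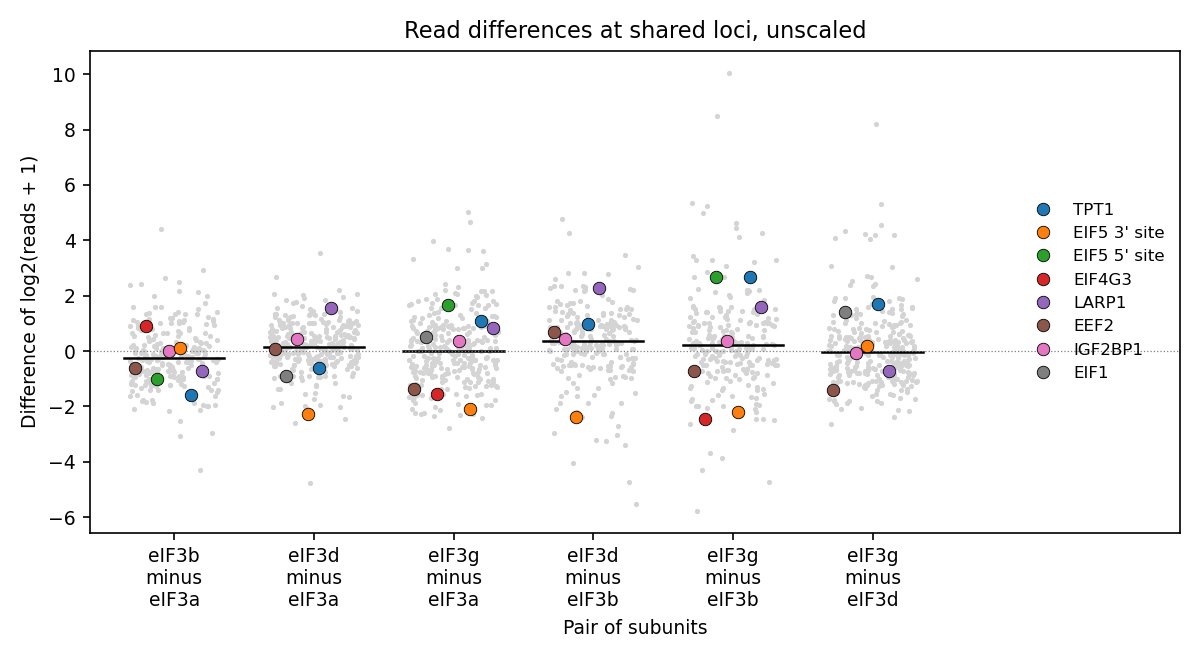
Difference of log2(reads + 1) between subunits at every shared locus (grey, spread sideways at random), with the median as a black line and member loci in colour. IGF2BP1 lies near the line in all 6 pairs, the EIF5 3′ site is at -2.27 for eIF3d minus eIF3a, and TPT1 is at 2.67 for eIF3g minus eIF3b.

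The genes of eIF4G1, eIF4E, PABPC1, IGF2BP2, IGF2BP3 and EEF1A1, relatives or partners of the factors above, had no cluster in the table. Of 14 known TOP mRNAs that do not encode ribosomal proteins, 3 had a cluster: TPT1, EEF2 and RACK1, a ribosome-associated scaffold listed under its older name GNB2L1. TPT1 and EEF2 belong to the set described above, which was chosen from genes with a cluster. The share of all expressed genes with a cluster was not computed, so this count cannot be read as many or few. None of 6 genes associated with the 293T line and none of 10 markers of other cell types had a cluster, so the labelled cell type was not checked by these data.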

How the data were processed

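Crosslinked RNA of 12 libraries was tabulated by the authors as 1 line per cluster and subunit. The authors deposited raw read counts and conversions per cluster, with no column for replicates, per the file headers. The submitters' processing notes name cutadapt, Bowtie, bedtools and hg19. The sources used here name no cluster caller and no thresholds, nor how the 3 libraries of a subunit were combined. Reads in clusters ran from 15132 for eIF3a to 62405 for eIF3g, and depth per library is unknown. PCR duplicates may remain, so intervals cover counting error only.

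Names differing in case were joined. A locus joins clusters of 1 strand with 1 nt or more in common. Ranks, shares, conversions per read and differences of log2(reads + 1) were computed with pandas 2.3.3 and scipy 1.17.1, and the steps were tested on simulated data. All 8 names matched RefSeq symbols, and 6 had start windows in GRCh38.p14. No test was made. Alternatives covered regions, ranks, scaling, a pseudocount of 0.1 and overlap. Members, lists and named genes (the 8 members, related genes with a cluster and, for each member, the gene nearest in reads) were chosen with earlier results of these data known. The result of the list of related genes is not reported here.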

Additional observations from a re-analysis of the deposited data

How the results depend on the processing

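Of 53 alternative values, 35 stayed close to the reported ones: a count within 1.5 times, a share within its interval, a percentile within 10 points, conversions per read within 1.5 times, or a log2 difference with the same sign and within 1.5-fold. The other 18 moved, 4 of them the members' share of reads without EIF3A and noncoding RNA, at 1.59% to 2.71%. Without clusters below their subunit's median, 1 gene was listed for all 4 subunits. The median percentile in eIF3b was 56.5 by gene and 60.5 without noncoding and intronic clusters. Summed conversions over summed reads were 0.546 in eIF3a and 0.531 in eIF3g. Scaled by all cluster reads, the members' median log2 difference was -0.95 for eIF3d minus eIF3a, while eIF3g minus eIF3a, eIF3b and eIF3d gave -1.61, -1.34 and -1.32. Scaled without EIF3A and noncoding RNA, those of eIF3g were -0.35, -0.58 and -0.56. With an overlap of at least 0.5 of the shorter cluster, which separates the eIF3d cluster of EIF1, eIF3d minus eIF3a was 0.06 and eIF3g minus eIF3d -0.08. Scaling moves all loci of a pair equally. Leaving out each replicate was not run. No paired analysis was possible because the table has no replicate column.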

Other observations

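For each gene the other gene of the table with the nearest reads was found, by distance in log2(reads + 1) over the 4 subunits. Reads were summed over the clusters of a gene, with 0 for a subunit without a cluster. Over 4 points that share their libraries, such likeness is a description. TPT1 was nearest to EIF3M, the mRNA of an eIF3 subunit, at distance 1.21. EIF3M had 364 reads in eIF3g, 149 in eIF3d, 116 in eIF3a and 114 in eIF3b. These are sums over several EIF3M clusters, of which the largest in eIF3g held 131 reads, while TPT1 had 1 cluster per subunit. EIF1 was nearest to H3F3B, a gene of the replacement histone H3.3, which had 15 reads in eIF3a, 10 in eIF3d and 27 in eIF3g and, like EIF1, no cluster in eIF3b (0.38). IGF2BP1 was nearest to FAU, which encodes a ribosomal protein fused to a ubiquitin-like protein (0.42). EIF4G3 was nearest to BOD1 (0.58), which was also absent from eIF3d, with 33, 37 and 9 reads in eIF3a, eIF3b and eIF3g. EEF2 was nearest to FAM84B (0.57) and LARP1 to DKC1, a nucleolar pseudouridine synthase (0.99). EIF5 had no close neighbour: the nearest, COX7C, a subunit of cytochrome c oxidase, lay at 1.82. PABPC4 and SHF had the same profile, 23 reads in eIF3d and none listed elsewhere.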
